A study of Mus musculus with 4 samples.

Results

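Bmp ligands, the Id genes that answer to them and genes that feed back on the pathway were followed in Rax::GFP- cells and Rax::GFP+ cells of mouse embryonic stem cell (ESC)-derived neural aggregates. The set held 10 genes chosen by name, namely the ligands Bmp2, Bmp4 and Bmp7, the targets Id1, Id2, Id3, Id4 and Msx2, and the inhibitors Smad6 and Bambi. All probe sets annotated to a single gene of this set were taken, which gave 17 of the 45101 probe sets on the array, for 10 of the 18194 genes with a probe set of their own. The GFP- cells (presumptive caudal, 2 arrays) and the GFP+ cells (rostral, 2 arrays) were separated by FACS at day 4.5 of SFEBq culture, a floating aggregate culture in a medium without added growth factors. Both groups carried the same reporter, green fluorescent protein driven from the eye field gene Rax, and came from a single ESC line. The RNA of each array came from many pooled aggregates, and the study calls the 2 arrays of a group biological duplicates. The reporter gene followed its gate, with Rax at 8.58 and 8.88 in GFP- cells against 10.70 and 10.86 in GFP+ cells (log2 RMA values, adjusted p = 0.00785). Six3, a rostral gene, was lower in GFP- cells and Irx3, a caudal gene, was higher (differences of -0.85 and 2.59, adjusted p = 0.0389 and 0.0175).

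Bmps are secreted proteins of the Tgf-beta family. They bind paired type I and type II receptors that phosphorylate Smad1, Smad5 and Smad9, which enter the nucleus with Smad4 and switch on the Id genes, Msx genes, Smad6, Smad7 and Bambi. Id proteins have a helix-loop-helix domain but no DNA-binding region, so they hold E proteins and other partners away from DNA, and Smad6 and Bambi dampen the signal itself. In the early embryo, Bmp signalling favours epidermal and mesodermal fates over neural fates, and Id genes are also known as Bmp targets of ESCs.

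The GFP- cells had more Bmp4 and Bmp2 mRNA and less Id2 and Id3 mRNA. Thus, in these sorted populations, the higher Bmp4 went with lower Id2 and Id3. At their most expressed probe sets, Id1, Id4, Smad6, Bambi and Msx2 were not called. Of 22 other genes known as Bmp targets in some tissue, 2 were called higher in GFP- cells and 1 was called lower. In the same GFP- cells, 7 of 8 pluripotency and epiblast markers and 5 of 8 endoderm markers were called higher, and 1 endoderm marker was called lower. Bmp4 was 4.43-fold higher in GFP- cells and Bmp2 was 2.13-fold higher, while Id2 was 2.14-fold lower and Id3 was 1.51-fold lower. Values are log2 RMA values, in which the probes of a set are combined after background correction and quantile normalization, and a gene stands here by the probe set with its highest mean. A gene was called when its p from limma, fitted on all probe sets and adjusted over all of them by the Benjamini-Hochberg method, was under 0.05. Of the 10 genes, 2 were called higher in GFP- cells, where 5.40% of all genes were, and 2 were called lower, where 2.63% of all genes were. With the replicate number as a block in the fit, 0 of all genes were called in either direction. All differences below are GFP- minus GFP+ on the log2 scale.

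**Figure D1:**
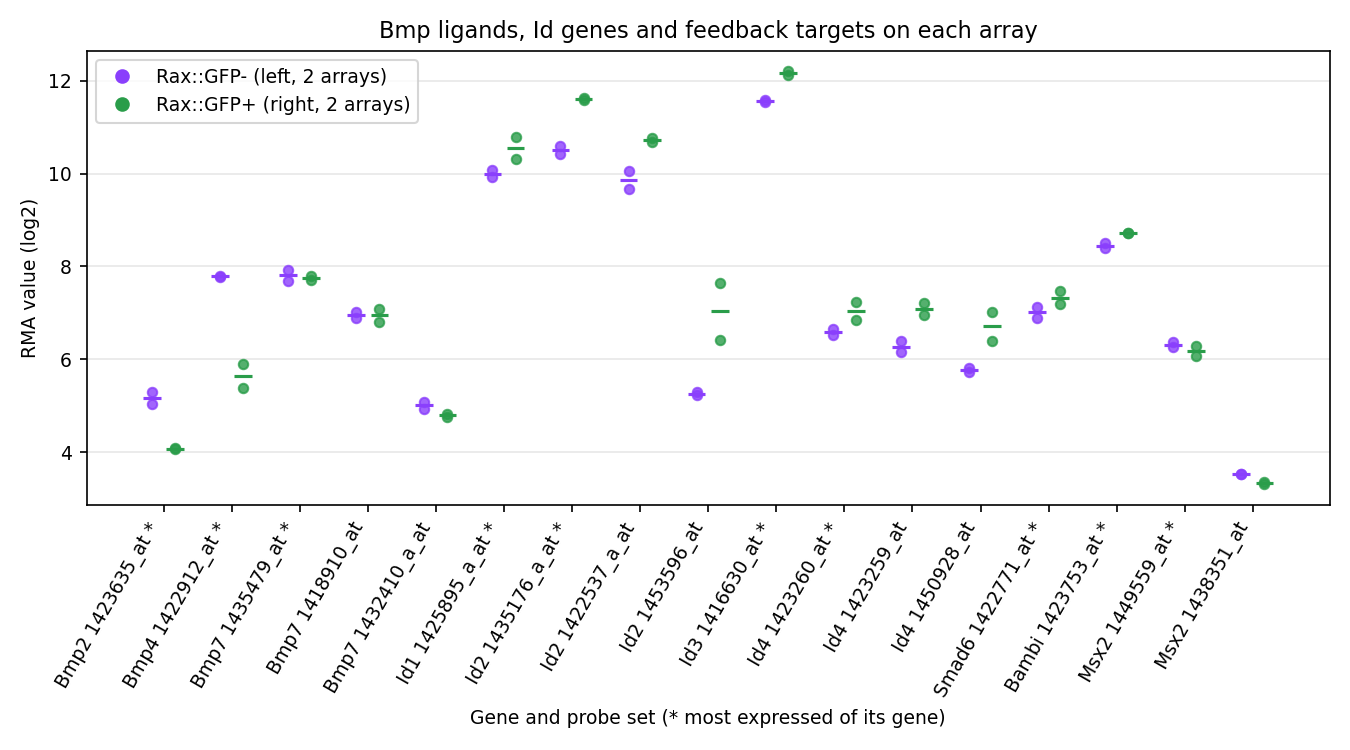
RMA value (log2, y axis) at the 17 probe sets of the 10 genes (x axis) on each array, with GFP- cells (purple) left of GFP+ cells (green) and bars for the mean of 2 arrays. Bmp4 and Bmp2 sit higher in GFP- cells, and the 8 Id probe sets sit lower in GFP- cells on both arrays.

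Bmp4 is a ligand that limits neural fate in the early ectoderm. It had 7.80 and 7.77 in GFP- cells, against 5.89 and 5.38 in GFP+ cells. The GFP- arrays lay close together and the GFP+ arrays spread wider, with no overlap between the groups. GFP- minus GFP+ was 2.15 (standard error, SE, 0.18, limma, adjusted p = 0.0124), from means of 7.78 ± 0.02 in GFP- cells and 5.64 ± 0.36 in GFP+ cells (SD, n = 2 each). Of all genes, 65 had a larger difference toward GFP- cells.

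Bmp2, which acts through the same receptors, had 5.03 and 5.30 in GFP- cells, against 4.09 and 4.06 in GFP+ cells. Both GFP- arrays lay above both GFP+ arrays. GFP- minus GFP+ was 1.09 (SE 0.11, limma, adjusted p = 0.0173). All these values lay below the array medians, which ran from 5.84 to 5.89, so Bmp2 was a dim probe set in both groups and RMA fold changes of dim probe sets tend to be understated. Bmp7, a ligand that pairs with Bmp4 and Bmp2 in heterodimers, was not called. At its most expressed probe set it had 7.93 and 7.69 in GFP- cells, against 7.80 and 7.71 in GFP+ cells (log2 difference 0.06, SE 0.11, adjusted p = 0.797). Its groups overlapped there and at a second probe set (adjusted p = 0.991), and the third, dim probe set differed by 0.21 (adjusted p = 0.242).

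The Id genes lay on the other side. All 8 Id probe sets had both GFP- arrays below both GFP+ arrays, an order that 24.9% of all probe sets showed, and their median log2 difference was -0.83, beside 0.03 over all probe sets. Of these 8, 4 were called lower in GFP- cells, at Id2, Id3 and Id4, where 3.82% of all probe sets were. All 8 were lower at an unadjusted p under 0.05, as were 13.0% of all probe sets. Probe sets of 1 gene share their target, so the 8 stand for 4 genes and are not independent.

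Id2, an Id gene of many progenitor cells, had the largest Id difference by most expressed probe set, with 10.60 and 10.43 in GFP- cells, against 11.63 and 11.59 in GFP+ cells. The groups were about a log2 unit apart and the arrays of each group lay close together. GFP- minus GFP+ was -1.10 (SE 0.09, limma, adjusted p = 0.0115). A second Id2 probe set, 1422537_a_at, gave the same direction, with 9.67 and 10.05 in GFP- cells against 10.67 and 10.77 in GFP+ cells (log2 difference -0.86, adjusted p = 0.0458). The third, 1453596_at, had 5.22 and 5.29 in GFP- cells against 7.64 and 6.42 in GFP+ cells. Its difference of -1.78 was larger, but the GFP+ arrays lay far apart and it was not called (SE 0.42, adjusted p = 0.0788).

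Id3, which acts with Id1 in ESCs and in the early nervous system, had 11.55 and 11.59 in GFP- cells, against 12.20 and 12.13 in GFP+ cells. The difference was small beside that of Id2. The SD of Id3 was 0.03 in GFP- cells and 0.05 in GFP+ cells, where Id2 had 0.12 and 0.02. GFP- minus GFP+ was -0.59 (SE 0.07, limma, adjusted p = 0.0246). Id1, a direct Smad target, had 9.92 and 10.08 in GFP- cells, against 10.78 and 10.32 in GFP+ cells. Its groups did not overlap, but GFP+ replicate 1 stood above GFP+ replicate 2, and Id1 was not called (log2 difference -0.55, SE 0.18, adjusted p = 0.146).

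Id4, an Id gene of neural progenitors, differed among its probe sets. At the most expressed it had 6.53 and 6.65 in GFP- cells, against 7.23 and 6.84 in GFP+ cells, and was not called (log2 difference -0.45, adjusted p = 0.158). At 1423259_at it had 6.15 and 6.40 in GFP- cells, against 7.21 and 6.96 in GFP+ cells, and was called lower (log2 difference -0.81, adjusted p = 0.0436). At 1450928_at the difference was -0.94 (adjusted p = 0.0786). When all probe sets of a gene were averaged before the fit, Id4 was called lower with a log2 difference of -0.73 (adjusted p = 0.0345).

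To show the upstream sequence of the genes described above, the windows from 250 bases before to 50 bases after the RefSeq start site (GRCm38.p6) of Bmp4, which was higher in GFP- cells, and of Id2, Id3 and Id4, which had lower values there, are given from 5′ to 3′. Capitals mark GGCGCC, a GC-rich element that Smad1 and Smad5 are known to bind and that reads the same on both strands.
Bmp4, chr14:46390620-46390919, minus strand: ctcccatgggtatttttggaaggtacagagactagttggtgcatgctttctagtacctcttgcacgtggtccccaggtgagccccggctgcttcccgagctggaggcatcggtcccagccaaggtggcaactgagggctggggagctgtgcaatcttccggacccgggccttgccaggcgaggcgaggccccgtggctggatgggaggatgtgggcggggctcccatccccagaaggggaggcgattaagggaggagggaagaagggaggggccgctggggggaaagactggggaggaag
Id2, chr12:25096043-25096342, minus strand: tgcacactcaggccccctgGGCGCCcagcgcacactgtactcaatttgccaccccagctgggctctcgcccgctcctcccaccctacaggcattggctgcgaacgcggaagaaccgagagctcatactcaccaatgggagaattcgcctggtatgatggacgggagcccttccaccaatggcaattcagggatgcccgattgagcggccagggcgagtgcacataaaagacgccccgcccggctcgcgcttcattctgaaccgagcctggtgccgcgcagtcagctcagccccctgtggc
Id3, chr4:136143572-136143871, plus strand: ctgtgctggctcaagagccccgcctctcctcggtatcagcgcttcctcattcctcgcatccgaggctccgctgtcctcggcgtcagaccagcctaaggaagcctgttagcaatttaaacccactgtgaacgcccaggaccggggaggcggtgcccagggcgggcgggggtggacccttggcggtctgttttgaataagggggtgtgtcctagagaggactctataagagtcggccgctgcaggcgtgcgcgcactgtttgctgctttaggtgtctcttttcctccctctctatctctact
Id4, chr13:48260866-48261165, plus strand: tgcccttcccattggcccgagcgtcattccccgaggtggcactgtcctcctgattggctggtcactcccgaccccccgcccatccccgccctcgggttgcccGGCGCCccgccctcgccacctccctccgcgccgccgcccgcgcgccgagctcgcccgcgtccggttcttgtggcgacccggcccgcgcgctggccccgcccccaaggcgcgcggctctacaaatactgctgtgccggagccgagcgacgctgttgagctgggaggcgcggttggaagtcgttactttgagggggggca
The window of Id2 held 1 GGCGCC, starting 231 bases before the start site, and that of Id4 held 1, starting 148 bases before it. The windows of Id3 and Bmp4 held 0. Of all 32851 promoter windows of this length, 11.9% held it. The E-box CANNTG, the letters that E proteins bind and from which Id proteins keep them, occurred 3 times in the Bmp4 window and 1 time in that of Id2, and 0 times in those of Id3 and Id4, against 72.3% of all windows with at least 1. The short Smad letters GTCT, or AGAC on the other strand, occurred 2 times for Bmp4, 1 time for Id2, 3 times for Id3 and 0 times for Id4, and 88.0% of all windows held them. CANNTG can share an end base with either of the others, and a match is a description of letters only. RefSeq windows were at hand for 6 of the 10 genes, and Bmp2, Bmp7, Id1 and Bambi had none. The windows of Smad6 and Msx2 were at hand but are not printed. Each of them held GGCGCC 0 times, GTCT or AGAC 2 times and CANNTG 1 time. Id4 had the window richest in G and C of the 6, at 73.3%, followed by Smad6 at 66.3%. The share of 11.9% for GGCGCC was not adjusted for G and C content.

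**Figure D2:**
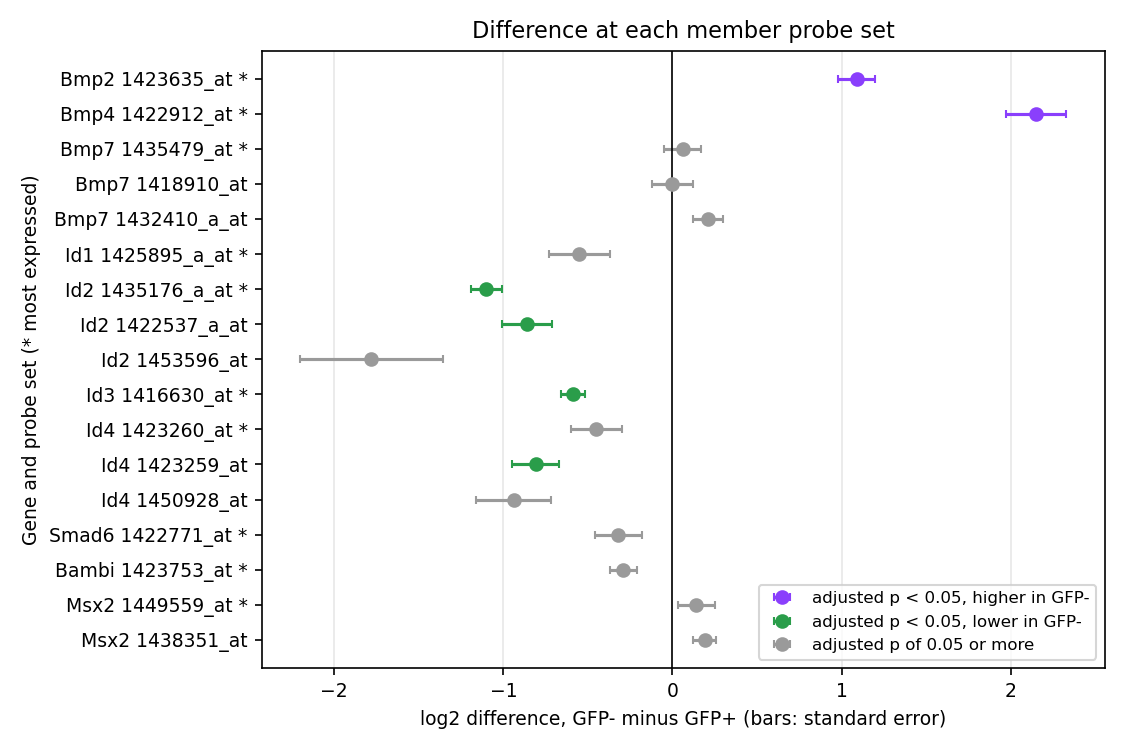
Log2 difference, GFP- minus GFP+ (x axis), at each of the 17 probe sets (y axis), with the standard error (SE) from limma as bars. Points with an adjusted p under 0.05 are purple where GFP- cells were higher and green where they were lower, and the others are grey. The 2 called ligands lie at 2.15 and 1.09, and the 8 Id probe sets lie between -1.78 and -0.45.

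Both feedback inhibitors had negative differences and were not called. Smad6, which blocks receptor-activated Smads, had 6.89 and 7.13 in GFP- cells, against 7.46 and 7.19 in GFP+ cells (log2 difference -0.32, SE 0.14, adjusted p = 0.244). Bambi, a receptor-like protein without a kinase domain that acts as a decoy, had 8.50 and 8.39 in GFP- cells and 8.73 on both GFP+ arrays (log2 difference -0.29, SE 0.08, adjusted p = 0.106). Neither pair of groups overlapped, and 24.9% of all probe sets had both GFP- arrays below both GFP+ arrays. A fit that lets the variance follow the intensity called Bambi lower (adjusted p = 0.0421), and no other setting did.

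Msx2, a homeobox target of Bmp signalling in the dorsal neural tube and skull, gave no call. It had 6.37 and 6.26 in GFP- cells, against 6.29 and 6.06 in GFP+ cells, with overlapping groups (log2 difference 0.14, SE 0.11, adjusted p = 0.494). Its second probe set was dim on all arrays, at 3.52 and 3.53 in GFP- cells against 3.31 and 3.36 in GFP+ cells (adjusted p = 0.186). Thus Smad6, Bambi and Msx2 were called in neither direction.

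Over all 17 probe sets, 2 were called higher in GFP- cells, beside 3.64% of all probe sets, and 4 were called lower, beside 3.82%. In 4 of the 17, both GFP- arrays lay above both GFP+ arrays (32.5% of all probe sets did), in 10 they lay below (24.9% of all probe sets did), and in 3 the groups overlapped. At most of these probe sets the GFP+ arrays leaned in 1 direction. The gap was small at some, such as Bmp2 (4.09 and 4.06), and wide at others, such as Bmp4 (5.89 and 5.38). Of the 17, 14 were higher on GFP+ replicate 1 than on GFP+ replicate 2, among them 7 of the 8 Id probe sets and Bmp4, where 45.8% of all probe sets were. On the GFP- arrays, 2 of the 8 Id probe sets were higher on replicate 1.

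The calls changed when an array was left out. Also, with 2 arrays against 2, an exact permutation test cannot give a p below 0.333. When GFP+ replicate 1 was left out, Bmp4 was called (adjusted p = 0.0339) and Bmp2 (0.0715), Id2 (0.0547) and Id3 (0.0941) were not. When GFP+ replicate 2 was left out, Bmp4 (0.0179), Bmp2 (0.0466) and Id2 (0.0299) were called and Id3 (0.0504) was not. Without GFP+ replicate 1 and without GFP+ replicate 2, the second Id2 probe set had differences of -0.92 and -0.81. The Id4 probe set 1423259_at had -0.68 and -0.93, and the third Id2 probe set had -1.16 and -2.39. In both cases the spread of a probe set itself came from the GFP- arrays alone, and limma drew it toward the spread of all probe sets. Calls made there, also that of Bmp4, therefore leave out the gap between the GFP+ arrays. Without GFP- replicate 1 or GFP- replicate 2, no probe set of the whole array was called, while 7704 and 7697 had an unadjusted p under 0.05. The log2 difference itself ran from 1.89 to 2.40 for Bmp4, from 0.96 to 1.23 for Bmp2, from -1.18 to -1.01 for Id2 and from -0.63 to -0.56 for Id3 over these 4 settings. Other values moved more without GFP+ replicate 1, where the difference was -0.25 for Id4, -0.32 for Id1, -0.18 for Smad6 and -1.16 at the third Id2 probe set.

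**Figure D3:**
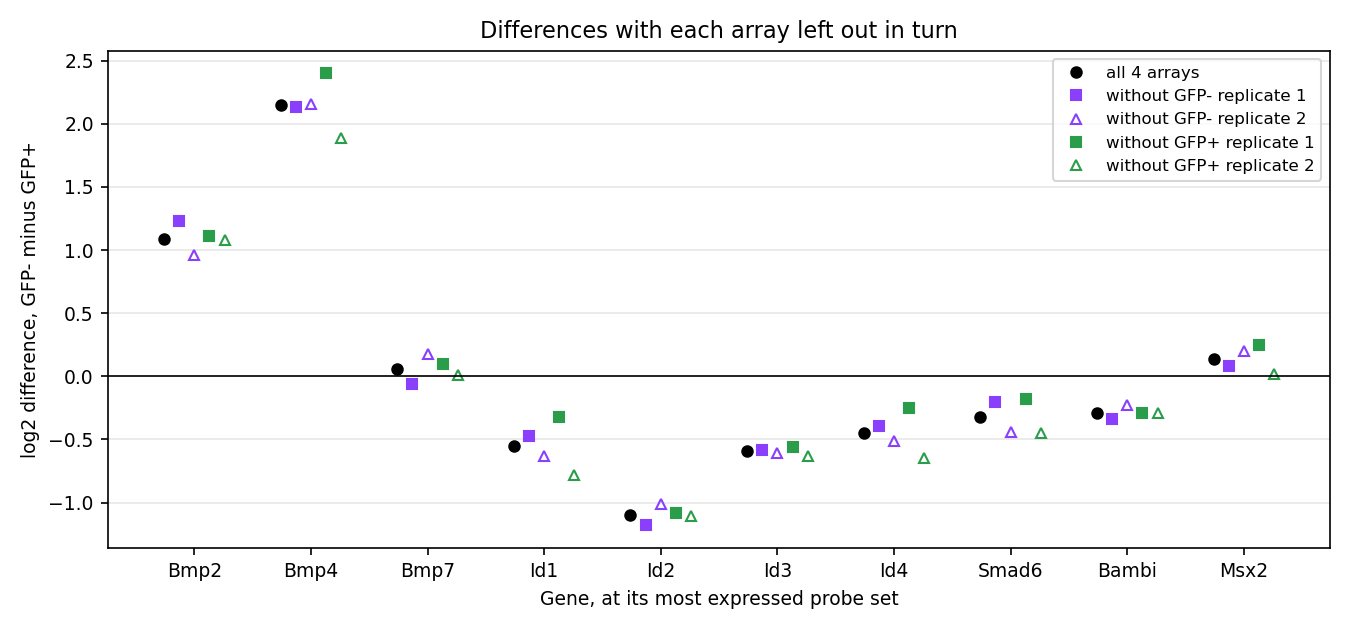
Log2 difference, GFP- minus GFP+ (y axis), of the 10 genes (x axis) with all 4 arrays (black) and with each array left out in turn (purple for a GFP- array, green for a GFP+ array). Bmp4 stays between 1.89 and 2.40 and Id2 between -1.18 and -1.01, while Bmp7 crosses 0.

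Other genes of the pathway were described from 6 lists. Of 87 measured genes, 7 were called higher in GFP- cells and 7 lower, against 5.40% and 2.63% of all genes. The same 2 shares stand behind the counts of each list. Among 10 other Bmp and Gdf ligands, 2 were higher and none was lower, with a list median of 0.16, beside 0.05 over all genes. Gdf3, a ligand of pluripotent cells that can hold back Bmp activity, had 6.19 and 6.59 in GFP- cells, against 4.82 and 5.20 in GFP+ cells (log2 difference 1.38, adjusted p = 0.0311). The ligand gene Bmp6 was higher by 0.57 (adjusted p = 0.0403). It was dim, with 5.62 and 5.61 in GFP- cells against 5.14 and 4.96 in GFP+ cells, all below the array medians. Bmp5, which had 7.48 and 6.77 in GFP- cells against 7.26 and 6.46 in GFP+ cells, had overlapping groups (log2 difference 0.26, adjusted p = 0.706), and Gdf2 was not called (0.18, adjusted p = 0.238).

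Of 12 receptors and co-receptors, 1 was higher and 1 was lower, with a list median of -0.15. The type II receptor gene Acvr2a was lower in GFP- cells, at 9.27 and 9.23, against 10.18 and 10.14 in GFP+ cells (log2 difference -0.91, adjusted p = 0.0107). The type I receptor gene Bmpr1b was higher, at 6.21 and 6.32 in GFP- cells against 5.80 and 5.67 in GFP+ cells (log2 difference 0.53, adjusted p = 0.0437). The other main type I receptor gene, Bmpr1a, was not called (-0.19, adjusted p = 0.177), nor was the type II receptor gene Acvr2b at its brightest probe set (-0.31, adjusted p = 0.0794). Of 9 Smad genes and Smad ubiquitin ligase genes, 0 were called by limma, 2 had an unadjusted p under 0.05, 1 in each direction, and the list median was 0.05. Smad4, the shared partner of all Smad signals, was not called (0.05, adjusted p = 0.778), nor was Smad1 (-0.29, adjusted p = 0.141).

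The secreted antagonists were split. Of 19 measured, 1 was higher and 2 were lower in GFP- cells, with a list median of 0.09. Grem1, which binds Bmp2 and Bmp4 and keeps them from their receptors, had 7.87 and 8.03 in GFP- cells, against 9.21 and 9.63 in GFP+ cells (log2 difference -1.48, SE 0.16, adjusted p = 0.0202). Vwc2, a secreted Bmp inhibitor of the brain, had 4.58 and 4.59 in GFP- cells, against 6.52 and 6.25 in GFP+ cells (log2 difference -1.80, adjusted p = 0.00767). Bmper, a Bmp-binding protein of the chordin type, was on the other side, at 6.78 and 6.84 in GFP- cells against 5.34 and 5.70 in GFP+ cells (log2 difference 1.29, adjusted p = 0.0185). Thus Bmp4 and Grem1, a ligand and its antagonist, differed in opposite directions. The highly expressed Fstl1 and Twsg1 were not called (-0.22 with adjusted p = 0.184, and -0.42 with adjusted p = 0.0558).

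Of 22 other genes known as Bmp targets in some tissue, 2 were higher in GFP- cells and 1 was lower, with a list median of 0.14. At an unadjusted limma p under 0.05, 8 were higher and 1 was lower, and 16 of the 22 differences were positive. At that unadjusted threshold, 13.0% of all probe sets were lower, and 12023 of the 45101 probe sets passed in either direction. The shares of all genes past it, and of all genes with a positive difference, were not computed. Tbx3, also a factor of naive ESCs, had 6.59 and 6.57 in GFP- cells, against 4.40 and 4.43 in GFP+ cells (log2 difference 2.16, adjusted p = 0.00549). Tfap2c, a factor of germ cells and surface ectoderm, was higher by 0.86 (adjusted p = 0.0124), and Prdm1, a repressor needed to form germ cells, was lower (-0.60, adjusted p = 0.0327). Tfap2c lay below the array medians on all arrays, at 5.73 and 5.79 in GFP- cells against 4.88 and 4.92 in GFP+ cells. Prdm1 had 5.25 and 5.29 in GFP- cells against 5.80 and 5.95 in GFP+ cells. Zfp423, a zinc finger partner of Smads, and Hey1 were not called (-0.13 with adjusted p = 0.623, and 0.14 with adjusted p = 0.303). The called targets lay in both directions.

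Of 15 measured E proteins and other helix-loop-helix factors, the partners and neighbours of Id proteins, 1 was higher in GFP- cells and 3 were lower, with a list median of 0.03. Hes5 and Hes1, repressors that answer to Notch, were lower, Hes5 with 7.87 and 7.84 in GFP- cells, against 8.97 and 8.87 in GFP+ cells (log2 difference -1.07, adjusted p = 0.00928), and Hes1 by a difference of -0.89 (adjusted p = 0.0111). The E protein gene Tcf4 had 10.29 and 10.26 in GFP- cells, against 10.81 and 10.70 in GFP+ cells (log2 difference -0.48, adjusted p = 0.0416). The E protein genes Tcf12 (-0.47, adjusted p = 0.0901) and Tcf3 (-0.13, adjusted p = 0.365) were not called, and Neurod1, a neuronal factor, was higher in GFP- cells by 0.97 (adjusted p = 0.0146). At less expressed probe sets, Tcf12 was called lower at 2, with differences of -2.17 and -0.96, and Acvr2b (-0.46), Rgmb (-1.01) and Chrdl1 (-0.55) were called lower at 1 each, while Smurf1 (0.54) and Hes6 (0.50) were called higher. Of the 14 pathway calls by most expressed probe set, 6 were called without GFP+ replicate 1, namely Tbx3, Neurod1, Bmper, Grem1, Vwc2 and Hes5, and none was called without either GFP- array. Without GFP+ replicate 2, Bmp6 (adjusted p = 0.0785), Bmpr1b (0.0991), Prdm1 (0.0689) and Tcf4 (0.0667) were not called.

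**Figure D4:**
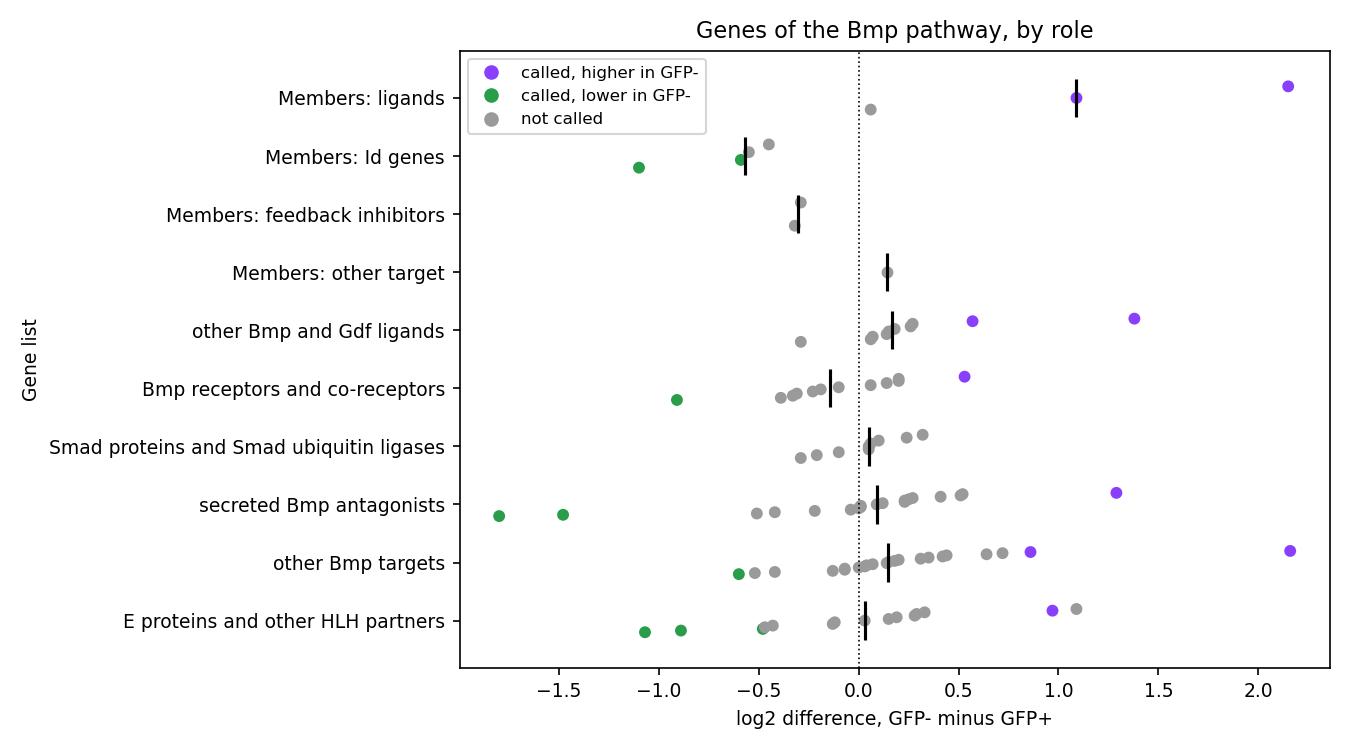
Log2 difference, GFP- minus GFP+ (x axis), for the genes of 10 lists (y axis), with a gene shown by its highest probe set. Points with an adjusted p under 0.05 are purple (higher in GFP- cells) or green (lower), the others are grey, and black bars are list medians, which are 1.09 for the 3 ligands of the set and -0.57 for the 4 Id genes.

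Marker lists of other cell types differed in how many genes were called, beside 5.40% of all genes called higher and 2.63% called lower. Of 8 pluripotency and epiblast markers, 7 were higher in GFP- cells, among them Nanog, and 0 were lower, and the summed level (log2 of the sum of linear values) was 13.44 and 13.51 in GFP- cells, against 10.69 and 10.63 in GFP+ cells. Of 8 endoderm markers, 5 were higher and 1 was lower, with summed levels of 10.46 and 10.54 in GFP- cells, against 8.86 and 9.04 in GFP+ cells, with Sox17 at a difference of 3.09 (adjusted p = 0.00551) and Foxa1 at -1.41 (adjusted p = 0.0262). Of 8 surface ectoderm markers, 2 were higher, Epcam and Grhl2, and 1 was lower, Grhl3 (-1.07, adjusted p = 0.0101). The summed levels of the 8 were 12.69 and 12.89 in GFP- cells, against 11.52 and 11.54 in GFP+ cells. Epcam, the brightest of the 8 in GFP- cells, had 11.74 and 12.00 there, against 8.90 and 9.07 in GFP+ cells. The uncalled Krt8 and Krt18 lay higher in GFP- cells without overlap (0.47 with adjusted p = 0.0578, and 0.35 with adjusted p = 0.068), an order that 32.5% of all probe sets showed. Krt5, Krt14 and Trp63, markers of stratified epithelium, had differences of 0.10, 0.04 and 0.10. Of 7 measured mesoderm and streak markers, 1 was higher, Eomes, with summed levels of 9.63 and 9.34 in GFP- cells, against 8.53 and 8.59 in GFP+ cells. RMA values have no true zero, so no marker can be given as absent. Neural crest and border markers had 1 higher and 1 lower of 7 measured, trophoblast markers 1 higher of 5, and midbrain and hindbrain markers 2 higher of 7. Of 6 eye field markers, 6 were lower in GFP- cells, and of 6 early neural markers, 4 were lower. Rax, whose reporter set the sort, was 1 of the eye field markers, so its direction was given by the sort. Pax6 stood in both lists. In sorted bulk RNA, fewer cells of a type and less RNA per cell cannot be told apart, and the part of these cell types in the Bmp and Id differences was not tested.

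The genes whose values over the 4 arrays were most like those of Bmp4 were Vsig10, Pmaip1, Fuom and Utf1, with root mean square distances of 0.0677, 0.0755, 0.123 and 0.139 after each gene was centred on its own mean. Those most like Id3 were Dennd5b (0.00463), Mapk11 (0.0128), Reep3 (0.0202) and Ncan (0.0204). With 4 arrays in 2 groups, such likeness mainly restates the difference between the groups.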

How the data were processed

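RNA of sorted Rax::GFP- and Rax::GFP+ cells was hybridised to Affymetrix mouse arrays, 2 per group. The authors deposited the RMA output as log2 values, and R 2.13.0 is named in the submitters' processing notes. Since RMA equalises the arrays, total RNA per cell is not measured. Arrays hold no counts, and their number limits the precision.

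A 2-group model was fitted to the values of every probe set with limma 3.58.1 (R 4.3.3), without a block or a filter, and Benjamini-Hochberg adjustment ran over all 45101 probe sets. The script was tested on simulated data. By the platform annotation, 34958 probe sets carried 1 symbol, 932 carried several and 9211 were unnamed here, and only those with 1 symbol were named. Probe sets have no positions here.

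Named were all probe sets of the 10 genes; of each pathway list (94 entries, 87 measured) the called genes and the 2 brightest uncalled ones; up to 3 called genes of each marker list; Rax, Six3 and Irx3; and the 4 genes nearest to Bmp4 and Id3. Genes of the pathway lists with calls only at less expressed probe sets, and Krt5, Krt8, Krt14, Krt18 and Trp63, were named after their values were seen. The genes and lists were chosen with earlier results of these data known. The results were recomputed with a replicate block, Storey's q-value, a filter (a log2 value of 5 on at least 2 arrays), median centring, quantile normalization, an intensity trend, averaged probe sets and each array left out. A group left with 1 array was assumed to vary like the other.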

Additional observations from a re-analysis of the deposited data

How the results depend on the processing

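The replicate numbers in the labels are not said to mark shared experiments, and same-numbered arrays did not deviate together (correlation -0.0514). The paper describes pooled aggregates in each of its duplicate experiments, so GFP+ and GFP- arrays may be paired by experiment. With 2 arrays per group, the correlation cannot settle this. With the replicate number as a block, the differences were the same (Bmp2 1.09, Bmp4 2.15, Id2 -1.10, Id3 -0.59), but their adjusted p rose to 0.0845, 0.0668, 0.0661 and 0.0965, and 0 probe sets of the array were called by limma in either direction, with 11019 at an unadjusted p under 0.05. The block leaves 1 residual degree of freedom fewer, and how the 4 arrays are paired was not tested further. Centring and quantile normalization changed no direction or call of the 17 probe sets. Storey's q-value called 6 probe sets of the 10 genes lower, adding 1453596_at of Id2 (q = 0.0456) and 1450928_at of Id4 (0.0455), 12 pathway genes higher and 11 lower, 1571 and 851 of all genes, and 2895 and 3239 of all probe sets. An intensity trend called Bambi (-0.29), 7 probe sets of the 10 genes lower, 11 pathway genes higher and 15 lower, 1883 and 1205 of all genes, and 3230 and 3732 of all probe sets. With probe sets averaged, Id4 was called (-0.73), with 12 pathway genes higher, and 1631 of all genes higher and 845 lower. The filter on dim probe sets called 11 pathway genes and 745 genes in all lower, and dropped 1 probe set each of Bmp7 and Msx2.

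With each array left out in turn, the difference of Bmp2 ran from 0.96 to 1.23, Bmp4 from 1.89 to 2.40, Id2 from -1.18 to -1.01 and Id3 from -0.63 to -0.56. That of Bmp7 ran from -0.06, without GFP- replicate 1, to 0.18, and at its second probe set from -0.13, without GFP+ replicate 2, over -0.07, without GFP- replicate 1, to 0.14. Of the 10 genes, 0 to 2 were called higher and 0 to 1 lower; of their probe sets, 0 to 2 and 0 to 3; of pathway genes, 0 to 5 in each direction; of all genes, 0 to 625 and 0 to 252; and of all probe sets, 0 to 1059 and 0 to 1919. No probe set was called without GFP- replicate 1 or without GFP- replicate 2. The cause was not tested.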
